A study of Mus musculus with 16 samples.

Results

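The TOX family comprises 4 genes in the mouse, Tox, Tox2, Tox3 and Tox4, of 26089 curated RefSeq genes on the chromosomes covered by the peak lists. Peaks of RNA polymerase II (Pol II), LSD1 and the histone marks H3K4me1, H3K4me2, H3K4me3 and H3K27ac were collected at each gene from its start to its end with 50 kb added on both sides. Of 214352 peaks in the 12 lists, 122 fell in these loci, with 53 at Tox4, 33 at Tox, 28 at Tox2 and 8 at Tox3. They came from CD8+ T cells of OT1 mice, in which a transgene encodes a T-cell receptor against ovalbumin. The cells were isolated from spleen and stimulated through CD3 and CD28 with antibodies for 48 h, and IL-2 then expanded them over 3 days. GSK cells received 0.5 μM GSK2879552, an irreversible inhibitor of LSD1, during activation and expansion, and Veh cells received vehicle over the same period. Each of the 6 antibodies had 1 library and 1 peak list per treatment, and the 4 input samples had no list of their own. No difference could therefore be set against a spread between replicates, and no test was made. The lists give no read numbers, and a missing peak means only that none passed the threshold of the authors. By the study's own account, the GSK library held more unique read pairs than the Veh library for H3K4me1 and Pol II. It held slightly more for H3K4me3, fewer for H3K4me2, far fewer for H3K27ac and slightly fewer for LSD1. The study also reports that equal numbers of reads were drawn at random from the libraries to compare signals. Whether the peak lists were called before or after that step is not clear.

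TOX proteins bind DNA through an HMG box, a domain that bends DNA, and share it with TCF-1, LEF-1 and the SOX factors. TOX is induced through calcineurin and NFAT when the T-cell receptor is stimulated for long, and it is required for exhausted CD8+ T cells to form and persist. TOX2 acts beside TOX in T cells and is also used by follicular helper T cells. TOX3 is best known from neurons and breast epithelium. TOX4 is expressed in most cells, where it is a subunit of the PTW/PP1 phosphatase complex. LSD1 (KDM1A) removes methyl groups from H3K4me1, a mark of enhancers, and from H3K4me2, a mark of enhancers and promoters. H3K4me3 marks the promoters of genes that are active or poised, and H3K27ac marks active promoters and enhancers.

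The LSD1 peaks of highest fold at these loci lay in introns of Tox2 and Tox, outside the windows of 1 kb around transcription start sites (TSSs). The 6 sequences below are summits, with 75 bases on each side, of LSD1 peaks outside such windows and outside annotated exons, 1 for each site, on the plus strand of mm10. Distances are from the first TSS of the gene, in the direction of its transcription. Capitals mark the letters TGTGGT, the core bound by RUNX factors, GGAAGT (ETS factors), TGANTCA (AP-1), CTTTGA (TCF-1 and LEF-1), CAGGTG (an E-box), AATCAC (GFI1) and GGGCGG (the GC box), each read on both strands.
Tox2 +26.2 kb (chr2:163229208-163229358): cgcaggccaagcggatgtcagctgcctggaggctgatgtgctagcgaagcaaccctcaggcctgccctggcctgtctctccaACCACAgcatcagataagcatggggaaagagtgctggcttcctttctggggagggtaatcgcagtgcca
Tox2 +50.3 kb (chr2:163253335-163253485): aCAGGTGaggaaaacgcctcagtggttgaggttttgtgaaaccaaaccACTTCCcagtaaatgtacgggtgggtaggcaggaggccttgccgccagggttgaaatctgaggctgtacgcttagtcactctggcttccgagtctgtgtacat
Tox +41.0 kb (chr4:6950445-6950595): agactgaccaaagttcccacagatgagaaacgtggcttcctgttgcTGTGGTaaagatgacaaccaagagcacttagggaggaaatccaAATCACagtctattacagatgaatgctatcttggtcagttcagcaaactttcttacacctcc
Tox +191 kb (chr4:6800515-6800665): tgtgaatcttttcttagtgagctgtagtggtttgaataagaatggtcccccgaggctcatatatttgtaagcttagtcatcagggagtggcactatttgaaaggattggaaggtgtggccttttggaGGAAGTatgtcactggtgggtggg
Tox4 -34.3 kb (chr14:52244778-52244928): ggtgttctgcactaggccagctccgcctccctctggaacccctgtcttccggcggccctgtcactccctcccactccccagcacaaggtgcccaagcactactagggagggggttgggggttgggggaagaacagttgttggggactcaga
Tox4 +64.1 kb (chr14:52343172-52343322): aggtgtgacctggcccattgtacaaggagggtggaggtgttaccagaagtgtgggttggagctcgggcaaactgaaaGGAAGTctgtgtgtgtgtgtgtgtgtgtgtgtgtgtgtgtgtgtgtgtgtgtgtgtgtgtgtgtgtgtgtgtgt
RUNX letters were found in 2 of the 6 windows, at Tox +41.0 kb and Tox2 +26.2 kb. Over windows of the same length, 26.0% of 12563 Veh LSD1 peaks and 20.5% of 9991 GSK LSD1 peaks away from TSSs held them. ETS letters were found in 3 other windows, at Tox2 +50.3 kb, Tox +191 kb and Tox4 +64.1 kb, against 16.8% of the Veh and 14.1% of the GSK windows. The E-box was found once, at Tox2 +50.3 kb (13.2% of Veh windows), and AATCAC once, at Tox +41.0 kb (6.52%). None of the 6 windows held TGANTCA (10.4% of Veh windows), CTTTGA (10.6%) or GGGCGG (7.29%). The Tox4 -34.3 kb window held none of the letters searched, and the Tox4 +64.1 kb window ended in a long GT repeat. The Tox windows were poor in G and C, with 43.7% at +41.0 kb and 45.0% at +191 kb, beside a median of 50.3% over the Veh windows. The Tox2 windows held 59.6% at +26.2 kb and 52.3% at +50.3 kb.

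At the promoters, taken as 1 kb on either side of each TSS, the 4 genes differed in which marks were present. Tox had a promoter peak in 7 of the 12 lists, Tox2 in 4, Tox3 in 6 and Tox4 in 9. The median over all genes was 4 lists, and 40.7% of genes had none. Tox, Tox2 and Tox3 had no H3K27ac and no Pol II peak at the promoter under either treatment, whereas Tox4 had both in Veh cells. For comparison, an H3K27ac peak lay at the promoters of 20.6% of genes in Veh cells and of 8.61% in GSK cells, and a Pol II peak at 29.4% and 25%. An LSD1 peak lay at the promoters of 36.5% of genes in Veh and of 41.8% in GSK cells. The corresponding shares were 30.4% and 36.9% for H3K4me1, 39.2% and 28.3% for H3K4me2, and 50.2% and 51.3% for H3K4me3.

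**Figure D1:**
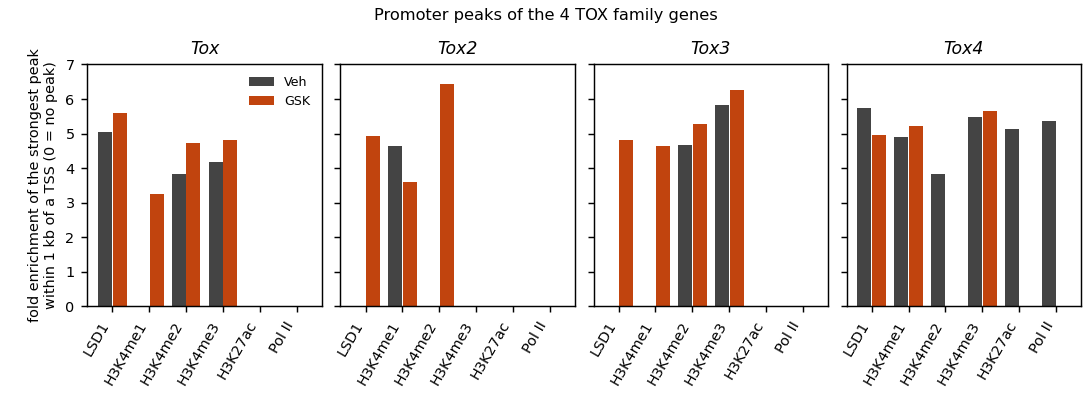
Fold enrichment (y axis) of the strongest peak within 1 kb of a TSS for each antibody (x axis) at Tox, Tox2, Tox3 and Tox4, with Veh in grey and GSK in orange. A bar at 0 means that the list holds no peak there, and each bar is 1 library. H3K27ac and Pol II bars appear only for Tox4 in Veh, and the H3K4me2 bar of Tox2 appears only in GSK, at 6.42.

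The Tox promoter (TSSs at chr4:6991557 and chr4:6990836, minus strand) carried LSD1, H3K4me2 and H3K4me3 under both treatments. The fold enrichment, which is ChIP signal over local background, was 5.06 for LSD1 in Veh (chr4:6989824-6991415, −log10 p of 11.9) and 5.60 in GSK (chr4:6990080-6991554, 12.8). For H3K4me3 it was 4.19 in Veh (−log10 p of 38.4) and 4.81 in GSK (45.4), and for H3K4me2 it was 3.83 in Veh (6.49) and 4.71 in GSK (9.05). All 3 were nominally higher in the GSK list, by amounts that 1 library each cannot tell from noise. By fold, the Veh H3K4me3 peak stood low in its list, above 16.7% of the peaks, while the Veh LSD1 peak stood above 72.8%. An H3K4me1 peak appeared in GSK cells only (chr4:6991387-6991667, 3.26-fold, −log10 p of 5.45), close to the lowest −log10 p of that list, 4.99. H3K4me1 peaks in GSK only were found at the promoters of 9.89% of genes. The reference table of promoter sequences has no entry for Tox.

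The Tox2 promoter (TSSs from chr2:163203127, plus strand) had no H3K4me3 peak under either treatment. An H3K4me1 peak covered it under both treatments, at 4.63-fold in Veh (chr2:163203017-163204572, −log10 p of 8.91) and 3.61-fold in GSK (chr2:163202967-163205235, 8.91). In GSK cells it also carried H3K4me2 at 6.42-fold (chr2:163202942-163203373, −log10 p of 12.3), above 90.8% of the peaks of that list, and no H3K4me2 peak was listed there in Veh. A promoter H3K4me2 peak in GSK only was uncommon, with 1.94% of genes, and the GSK H3K4me2 list was the shorter of the pair (9437 against 15219 peaks) and came from the library with fewer reads. GSK cells further had 2 LSD1 peaks at this promoter, of 4.93-fold (chr2:163203159-163204014, −log10 p of 8.28) and 4.23-fold (chr2:163204405-163204763, 6.51), where Veh cells had none. LSD1 in GSK only was found at the promoters of 9.78% of genes. The combination of presence and absence over the 12 lists that Tox2 showed was shared by 9 genes in all, Tox2 included, against 200 for that of Tox, 55 for that of Tox3 and 29 for that of Tox4. The 2 start sites of Tox2 further into the gene (chr2:163225453 and chr2:163225454) had no peak within 1 kb in any list.

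The Tox3 promoter (TSS at chr8:90348252, minus strand) carried H3K4me3 and H3K4me2 under both treatments. H3K4me3 was 5.83-fold in Veh (chr8:90347659-90348043, −log10 p of 11.5) and 6.26-fold in GSK (chr8:90347664-90348419, 18.5), and H3K4me2 was 4.67-fold (7.13) and 5.27-fold (8.38). LSD1 (chr8:90347844-90348463, 4.81-fold, −log10 p of 7.18) and H3K4me1 (chr8:90347392-90347865, 4.63-fold, 7.85) were listed in GSK only. Tox2 and Tox3 thus both had an LSD1 promoter peak in GSK and none in Veh, beside 9.78% of all genes. Both H3K4me3 peaks were narrow, 385 bp in Veh and 756 bp in GSK, next to a median width of 1034 bp and 1008 bp in the lists.

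The Tox4 promoter (TSS at chr14:52279146) faces that of Rab2b, a gene for a small GTPase, whose TSS lies 0.249 kb away on the other strand (chr14:52279395). Peaks between them cannot be assigned to either gene. H3K4me3 spanned both start sites, at 5.49-fold in Veh (chr14:52278656-52280356, −log10 p of 96.2) and 5.66-fold in GSK (chr14:52278661-52280309, 94.7), and LSD1 was 5.73-fold (chr14:52279323-52279933, 11.1) and 4.95-fold (chr14:52279359-52279975, 8.32). A separate H3K4me1 peak flanked the start site on the far side, at 4.91-fold in Veh (chr14:52278078-52278386) and 5.22-fold in GSK (chr14:52278040-52278392). H3K27ac (chr14:52279224-52279967, 5.12-fold, −log10 p of 14.4) and Pol II (chr14:52279438-52279806, 5.35-fold, 10.1) were listed in Veh only. So was a weaker H3K4me2 peak at the edge of the window (chr14:52280044-52280558, 3.83-fold, −log10 p of 6.30). Promoter peaks in Veh only were found at 12.3% of genes for H3K27ac, 7.35% for Pol II and 12.8% for H3K4me2. The H3K27ac list held 7410 peaks in Veh and 2751 in GSK, and of the Veh H3K27ac peaks at TSSs 39.4% were overlapped in GSK. The GSK library of H3K27ac had far fewer reads than the Veh library, that of H3K4me2 had fewer and that of Pol II had more. The part of depth in these calls was not tested.

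Promoter sequence was printed from the RefSeq windows of build GRCm38.p6, which hold 3 of the 4 genes, to show how far the promoters differ in base composition. Each run ends before the first exon of the gene, from any RefSeq transcript, that overlaps the window. The RefSeq gene body of Tox3 reaches chr8:90349029, so its run lies inside that gene body, upstream of the curated TSS. Capitals mark the same letters as above.
Tox2 promoter (chr2:163202877-163203057, plus strand): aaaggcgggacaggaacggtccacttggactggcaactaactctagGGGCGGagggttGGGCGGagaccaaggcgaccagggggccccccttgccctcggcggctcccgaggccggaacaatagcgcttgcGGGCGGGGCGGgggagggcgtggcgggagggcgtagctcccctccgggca
Tox3 promoter (chr8:90348427-90348502, minus strand): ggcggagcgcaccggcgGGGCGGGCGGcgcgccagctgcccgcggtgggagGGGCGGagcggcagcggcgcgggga
Tox4 promoter (chr14:52278896-52279145, plus strand): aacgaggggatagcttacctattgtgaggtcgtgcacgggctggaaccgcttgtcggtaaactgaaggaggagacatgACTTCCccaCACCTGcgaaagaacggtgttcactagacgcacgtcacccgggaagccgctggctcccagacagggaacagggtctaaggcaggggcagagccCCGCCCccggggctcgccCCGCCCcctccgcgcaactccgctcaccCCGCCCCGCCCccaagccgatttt
Over the full 250 bases before the TSS, the share of G and C was 84.4% for Tox3, 75.2% for Tox2 and 64.8% for Tox4, beside a median of 52.4% over 32841 promoter windows. They held 40, 27 and 21 CpG dinucleotides, and the median over all windows was 6. The GC box GGGCGG occurred 7 times at Tox2 and 4 times at Tox3 and at Tox4, overlapping matches included, and 32.7% of all windows held it at least once. Tox2, with 27 CpG dinucleotides, was the member of the 3 without an H3K4me3 peak. Part of the Tox4 stretch is a coding exon of Rab2b.

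Within the Tox locus (chr4:6686353-6991557, minus strand, 10 exons in the longest curated transcript), 24 of 33 peaks were intronic and 2 were intergenic. Overlapping peaks merged into 12 elements away from TSSs, and H3K4me1 was present at 10 of them. H3K27ac was present at none, and H3K4me2 at 1 (chr4:6934449-6934940, Veh only, 5.15-fold). Most H3K4me1 elements lay in intron 2, from +21.3 kb to +89.2 kb. The H3K4me1 peaks were of ordinary height, from 3.24-fold to 5.04-fold in Veh. All 8 H3K4me1 peaks of the Veh list had a counterpart in GSK. GSK cells had 2 further H3K4me1 peaks away from the promoter, in intron 4 at +191 kb (chr4:6800264-6800642, 5.15-fold) and in intron 2 at +50.7 kb (chr4:6940670-6941101, 3.78-fold). The single Pol II peak of the locus lay in intron 4 at +212 kb in GSK (chr4:6779183-6779372, 3.46-fold, −log10 p of 4.53) with no mark beside it, and intron numbers follow the longest curated transcript.

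**Figure D2:**
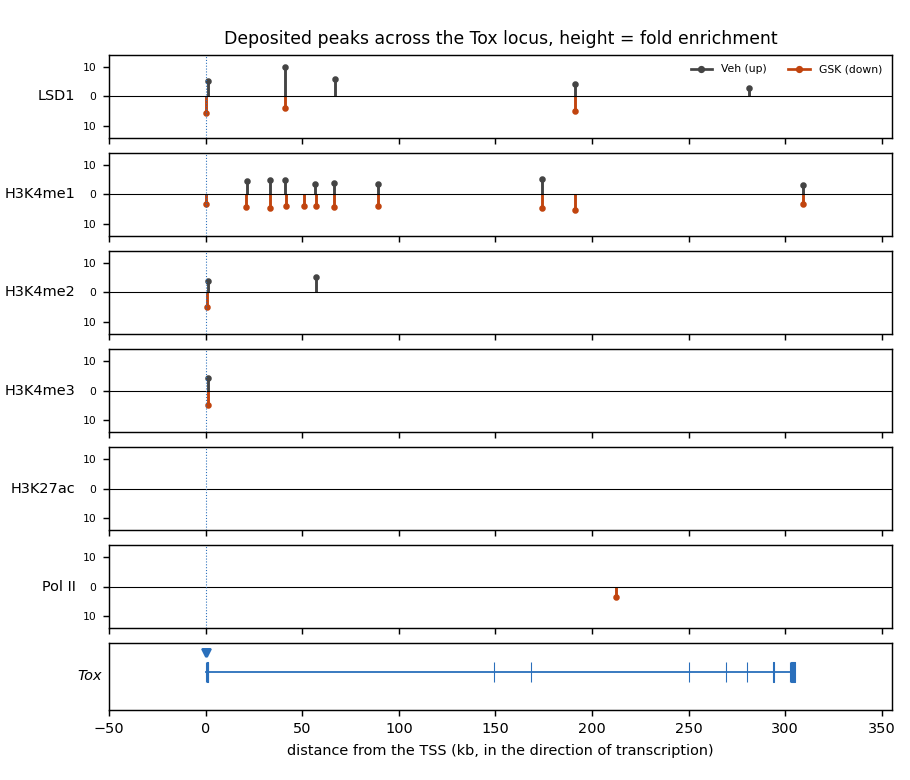
Peaks of the 6 antibodies across the Tox locus by distance from the TSS in kb (x axis). Stem height is fold enrichment, upward for Veh and downward for GSK, and the bottom row shows the exons (bars) and TSSs (triangles). LSD1 at +41.0 kb reached 9.74-fold in Veh and 4.03-fold in GSK, and the H3K27ac row is empty.

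The strongest LSD1 peak in the Tox introns had a lower fold in GSK, while H3K4me1 was present there under both treatments. At +41.0 kb in intron 2 LSD1 was 9.74-fold in Veh (chr4:6950342-6950782, −log10 p of 25.5, rank 668 of 21252 peaks) and 4.03-fold in GSK (chr4:6950523-6951149, 5.03, rank 15183 of 19919). The GSK peak overlapped the Veh peak over 260 bp and its summit lay 107 bp away. H3K4me1 at the same element was 4.76-fold in Veh and 3.97-fold in GSK. This site held the RUNX letters shown above. At +191 kb in intron 4 LSD1 was present under both treatments at 4.28-fold and 4.95-fold, with H3K4me1 in GSK only. Of the 4 Veh LSD1 peaks in the Tox introns, 2 had no counterpart in GSK, among them a peak in intron 7 (chr4:6710494-6710910, 2.86-fold, −log10 p of 3.02) that had no mark under either treatment.

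The Tox2 locus (chr2:163203058-163324172, plus strand) held the strongest LSD1 sites of the family, both intronic. In intron 1 at +26.2 kb LSD1 was 12.8-fold in Veh (chr2:163228924-163229511, −log10 p of 62.2, rank 75 of 21252) and 10.8-fold in GSK (chr2:163229000-163229640, 35.5, rank 200 of 19919). In intron 2 at +50.3 kb it was 11.0-fold in Veh (chr2:163252959-163253813, −log10 p of 37.3, rank 296) and 5.18-fold in GSK (chr2:163253098-163253803, 9.38, rank 6149). The summits of the lists lay 31 bp apart at +26.2 kb and 2 bp apart at +50.3 kb. The first site lay 3.83 kb from the nearest start site of Tox2. Both sites ranked high in the Veh list and the first also in the GSK list, though ranks of separately called lists, 1 library each, are not a measure of change. H3K4me1 covered both elements in both lists, at 3.98-fold and 3.20-fold at +26.2 kb and at 5.25-fold and 4.44-fold at +50.3 kb in Veh and GSK. Neither site carried H3K4me2, H3K4me3, H3K27ac or Pol II in any list.

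**Figure D3:**
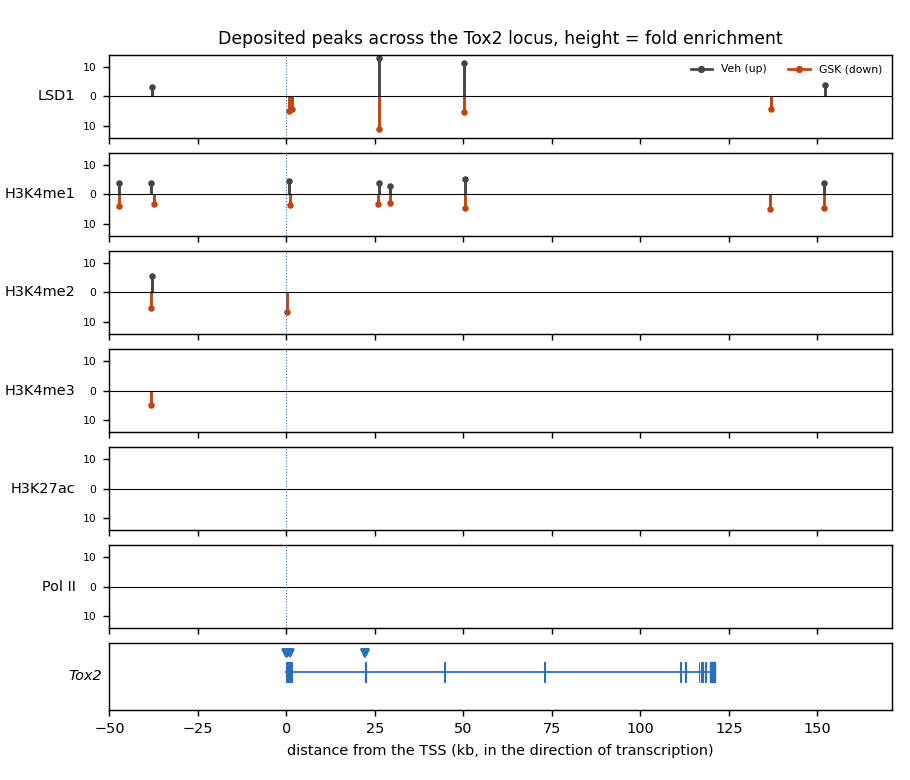
Peaks of the 6 antibodies across the Tox2 locus by distance from the TSS in kb (x axis), with fold enrichment as stem height, upward for Veh and downward for GSK, and exons and TSSs in the bottom row. The intronic LSD1 stems at +26.2 and +50.3 kb are the tallest, at 12.8-fold and 11.0-fold in Veh, and those at the TSS appear only on the GSK side.

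Elsewhere at Tox2, the element at -38.1 kb upstream carried H3K4me1 and H3K4me2 under both treatments. It also had an LSD1 peak in Veh only (chr2:163164564-163165106, 3.18-fold, −log10 p of 3.90) and an H3K4me3 peak in GSK only (chr2:163164478-163165026, 4.89-fold). Downstream of the gene, within Jph2, which encodes a junctophilin of muscle, LSD1 and H3K4me1 overlapped an exon at +137 kb in GSK only (LSD1 chr2:163339713-163340028, 4.30-fold). In an intron of Jph2 at +152 kb an LSD1 peak was listed in Veh only (chr2:163355078-163355485, 3.75-fold), with H3K4me1 of 3.94-fold in Veh and 4.40-fold in GSK. A RefSeq start site of Gm35750 outside the curated set lies within 1 kb of these peaks. No H3K27ac and no Pol II peak fell anywhere in the 221 kb around Tox2. Taken over all genes with the same flanks, 49.6% of loci in Veh and 72.0% in GSK had no H3K27ac peak, and 29.9% and 31.5% had no Pol II peak. Those loci vary in length with their genes and were not matched to Tox2.

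The Tox3 locus (chr8:90247110-90349029) was the emptiest, with 8 peaks in 202 kb, of which 6 lay at the promoter. The remaining 2 formed an upstream element at about -8 kb with LSD1 in Veh only (chr8:90356189-90356555, 3.25-fold, −log10 p of 3.71) and H3K4me1 in GSK only (chr8:90356004-90356540, 5.14-fold, above 91.5% of that list). Of the 24 elements away from TSSs in the family, this was the only 1 with LSD1 in Veh only and H3K4me1 in GSK only. How common such elements are at other genes is not given. The LSD1 peak was weak, and of Veh LSD1 peaks in the same lowest quartile by −log10 p, 7.04% were overlapped in GSK.

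At the Tox4 locus (chr14:52279146-52295509, plus strand), which is gene-dense, 27 of 53 peaks lay at the TSSs of Chd8, Mettl3 and Sall2 and 9 at that of Tox4 itself. Chd8 encodes a chromatin remodeller, Mettl3 the catalytic subunit of the RNA m6A methyltransferase and Sall2 a zinc-finger factor. At the Mettl3 promoter, +25.9 kb from Tox4, LSD1 was 4.75-fold in Veh and 7.26-fold in GSK, Pol II was 4.36-fold and 5.63-fold, and H3K27ac was again listed in Veh only (5.43-fold). At the Chd8 promoter LSD1 was 7.30-fold in Veh and 7.97-fold in GSK, and Pol II was listed in Veh only (3.86-fold). Sall2 had H3K4me3 of 8.12-fold and 7.37-fold at 1 of its start sites, LSD1 in GSK only (−log10 p of 5.03) and no Pol II. At -34.3 kb, in an intron of Chd8 where predicted transcripts start, LSD1 was 5.43-fold in Veh (chr14:52244531-52245001) and 5.04-fold in GSK (chr14:52243988-52244654), with summits 661 bp apart. H3K4me3 there was 9.88-fold in Veh and 9.14-fold in GSK. The intergenic element at +64.1 kb had LSD1 in GSK only (chr14:52343138-52343757, 5.02-fold, −log10 p of 8.44), beside H3K4me2 of 7.07-fold in Veh and 7.53-fold in GSK, above 97.2% and 98.3% of their lists. Its peaks lie within 1 kb of a RefSeq start site of Gm26328 that is outside the curated set, so the element may not be distal.

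**Figure D4:**
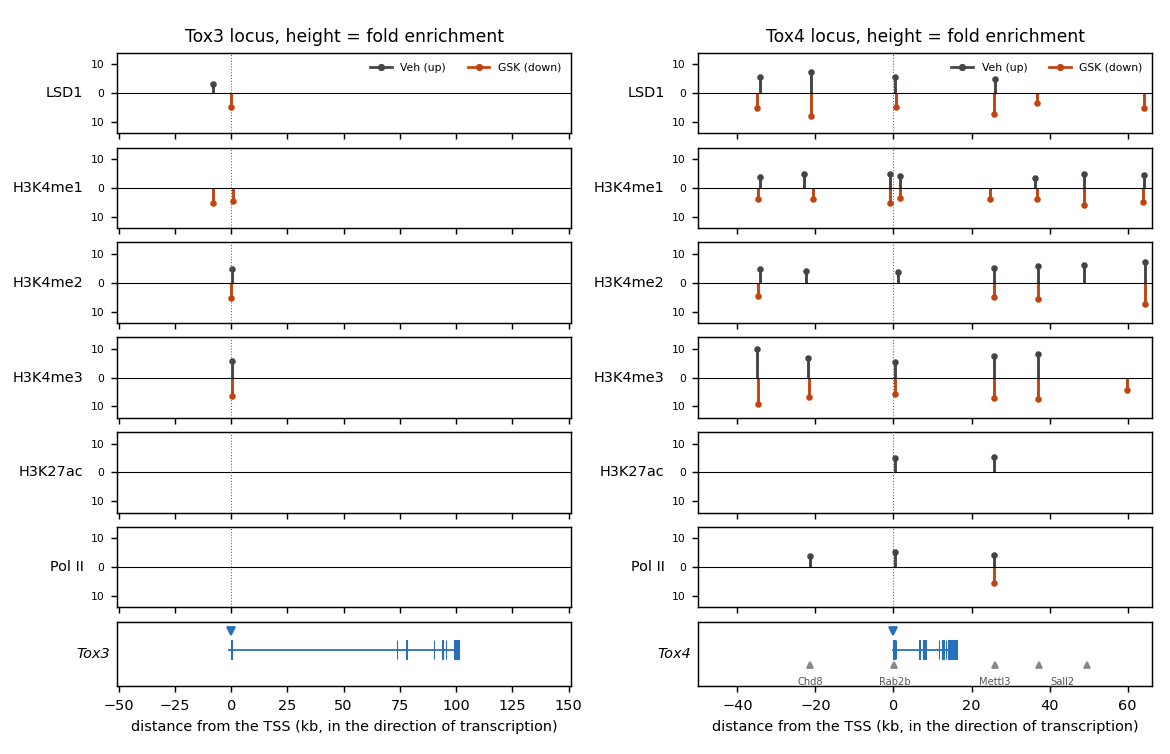
Peaks of the 6 antibodies across the Tox3 (left) and Tox4 (right) loci by distance from the TSS in kb (x axis), with fold enrichment as stem height, upward for Veh and downward for GSK. Grey triangles are TSSs of neighbouring genes. Tox3 shows 6 peaks at the TSS and 2 near -8 kb, and the H3K27ac stems at Tox4 and Mettl3 are on the Veh side only.

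Over the 4 loci, peaks of each antibody were matched between the treatments. Of 14 Veh LSD1 peaks 9 were overlapped by a GSK peak, and of 15 GSK LSD1 peaks 9 by a Veh peak, beside 54.6% and 57.8% of the whole lists. Away from TSSs 5 of 10 Veh LSD1 peaks were overlapped (34.9% of the list). H3K4me1 was overlapped for 21 of 22 Veh and 21 of 29 GSK peaks (87.8% and 75.2% of the lists). For H3K4me2 the counts were 7 of 11 Veh and 7 of 8 GSK peaks (55.3% and 89.2%), and for H3K4me3 they were 7 of 7 and 7 of 9 (97.3% and 91.1%). Neither of the 2 Veh H3K27ac peaks was overlapped, and GSK cells had none (35.2% and 95% of the lists). For Pol II 1 of 3 Veh and 1 of 2 GSK peaks were overlapped (39.1% and 39.6%). The counts are small, and no share was tested against that of its list.

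Among elements away from TSSs, H3K4me1 was present at 21 of 24, under both treatments at 17 and in GSK only at 4. None had it in Veh only, and the GSK H3K4me1 library was the more deeply sequenced. LSD1 was present at 12 elements, under both treatments at 5, in Veh only at 5 and in GSK only at 2. All 7 GSK LSD1 peaks away from TSSs overlapped GSK H3K4me1, as did 48.2% of such peaks in the list. Of the 10 Veh LSD1 peaks away from TSSs, 7 overlapped Veh H3K4me1 (47.9% of the list) and 9 overlapped GSK H3K4me1 (50.6%). H3K27ac was present at none of the 24 elements. Elements were merged from the 12 lists themselves, and the H3K4me1 lists were the longest, with 34387 peaks in Veh and 40272 in GSK. H3K4me1 at most elements is therefore partly built in. No share over all such elements is given for the counts here or at the single loci.

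The lower LSD1 fold in GSK at Tox +41.0 kb and Tox2 +50.3 kb was set beside all LSD1 peaks away from TSSs that both lists shared. These sites had the lowest ratios of the 5 such peaks at the loci, so the shares below are for sites picked on that value. The GSK to Veh ratio of fold enrichment was 0.413 at Tox +41.0 kb and 0.468 at Tox2 +50.3 kb. Of 4383 shared peaks, 0.479% and 1.16% had a lower ratio, and the median was 0.968. These shares leave out peaks with no GSK counterpart, which have no ratio. Strong Veh peaks had lower ratios in general, with a median of 0.846 in the top quartile by −log10 p and 1.29 in the lowest. That top quartile held 3141 Veh peaks, of which 2187 were shared and 954 had no GSK peak. Counting the peaks without a GSK peak with those of lower ratio, 31.0% of the quartile stood below Tox +41.0 kb and 32.0% below Tox2 +50.3 kb, and among shared peaks alone 0.960% and 2.33% did. At Tox2 +26.2 kb, also in the top quartile, the ratio of 0.842 was near the median, with 49.3% of the shared peaks of the quartile below it. The ratio was 1.16 at Tox +191 kb and 0.929 at Tox4 -34.3 kb. For H3K4me1 the ratio was 0.835 at the Tox +41.0 kb element, 0.846 at Tox2 +50.3 kb and 0.804 at Tox2 +26.2 kb. Of shared H3K4me1 peaks, 11.6%, 13.96% and 6.99% had a lower ratio, without matching for peak strength. The GSK H3K4me1 call was the wider at each of these 3 elements, 1499 against 1000 bp, 1902 against 1683 bp and 1422 against 947 bp. The part of strength and width in these ratios was not tested. Over the 17 shared H3K4me1 peaks of the loci the median ratio was 0.949, and it was 0.958 over the list.

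**Figure D5:**
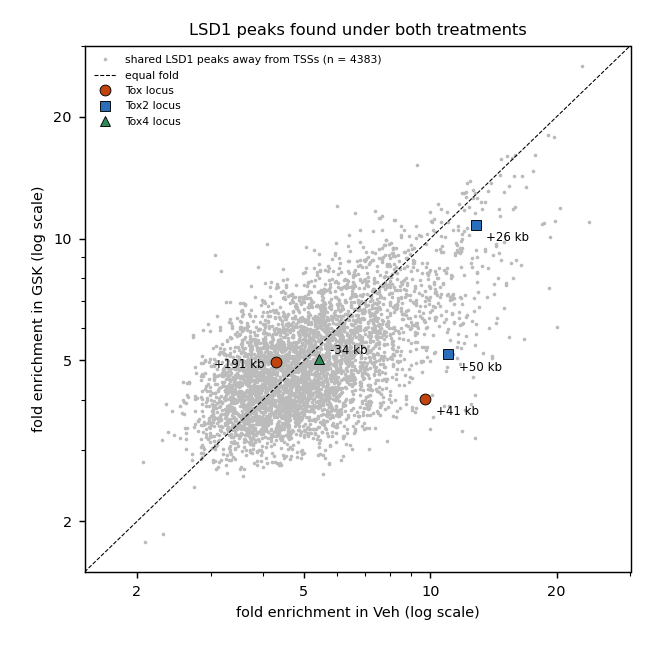
Fold enrichment of LSD1 in Veh (x axis) and GSK (y axis), both on log scales, for 4383 shared peaks away from TSSs (grey) and the 5 such peaks at Tox, Tox2 and Tox4 (coloured, labelled by distance from the TSS). The dashed line marks equal fold. Peaks without a GSK counterpart are not drawn. Tox at +41.0 kb and Tox2 at +50.3 kb lie at the lower edge of the cloud, with ratios of 0.413 and 0.468, and Tox2 at +26.2 kb lies near the line.

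In presence of peaks, the promoters of Tox and Tox3 were alike in every antibody but LSD1, which Tox had under both treatments and Tox3 in GSK only. The Tox H3K4me1 peak was weak, at rank 39131 of 40272. With lists of equal length it was left out, while that of Tox3 (rank 22337) stayed. Likeness was taken as the Euclidean distance over the 12 lists of log2(1 + fold) at the promoter, where the genes closest to Tox were Hspbap1 (0.195), Xylt1 (0.353) and Crim1 (0.376). Closest to Tox2 were Doc2b and Gm12339 (both 0.288) and Aifm3 (0.411), and closest to Tox3 were Hymai and Plagl1 (both 0.238) and Zxdc (0.285). For Tox4 they were Ciao2b (0.600), Gm10505 (0.789) and Txndc12 (0.887). Within the family the nearest pair was Tox and Tox3 at 2.70, with 1363 genes nearer to Tox than Tox3 was and 623 nearer to Tox3 than Tox was. Absent peaks enter as 0, so genes without Pol II and H3K27ac peaks group together by that alone.

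The calcineurin, NFAT and NR4A genes, known to act upstream of Tox, had peaks at their promoters in a median of 9 lists. The median was 8 for other HMG-box genes, listed for the shared domain, 7 for the TOX4 complex and 4 over all genes. No matched set of genes was drawn, so these medians say nothing of a link to the TOX proteins. All 9 genes of the first list had H3K4me3 under both treatments, and 8 had Pol II in Veh and 6 in GSK. LSD1 lay at 6 of these promoters in Veh and at all 9 in GSK. Over all genes, promoter peaks in Veh and GSK were found at 50.2% and 51.3% for H3K4me3. The shares were 29.4% and 25% for Pol II and 36.5% and 41.8% for LSD1. Nfatc2, which encodes the NFAT factor NFAT1, had peaks in 11 of 12 lists, with H3K27ac of 3.73-fold in Veh and 5.06-fold in GSK. Nr4a3, an orphan nuclear receptor gene, had peaks in 3 lists, with H3K4me3 of 2.25-fold in Veh and LSD1 in GSK only at 3.60-fold. Of 17 other HMG-box genes, 16 had H3K4me3 under both treatments, and LSD1 lay at 11 promoters in Veh and 15 in GSK. Tcf7, which encodes TCF-1, had LSD1 in GSK only (4.01-fold) and H3K4me2 of 3.65-fold and 5.57-fold in Veh and GSK, without Pol II or H3K27ac. The 5 genes of the other subunits of the TOX4 complex had H3K4me3 under both treatments and H3K27ac in Veh only, as at Tox4. Of all 5367 genes with promoter H3K27ac in Veh, 3208 had it in Veh only, so this state was common over the list. Pol II lay at 4 of these 5 promoters under both treatments and at Ppp1ca, which encodes a catalytic subunit of the phosphatase PP1, in GSK only.

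The labelled cell type was checked on marker promoters. All 7 CD8+ T-cell genes (Cd8a, Cd8b1, Cd3d, Cd3e, Cd3g, Lck and Ptprc) had H3K4me3 under both treatments, and 4 had Pol II in Veh and 6 in GSK. Cd4 and the markers of B cells (3 genes), myeloid cells (3) and NK cells (2) had no H3K4me3 or Pol II peak in any list. H3K4me1 was listed in GSK only at 1 B-cell gene and in Veh only at 1 NK-cell gene, and the myeloid marker Itgam had H3K4me1 under both treatments (3.45-fold in Veh and 2.94-fold in GSK) and LSD1 in Veh only. In bulk samples, a difference in how many cells carry a mark cannot be told apart from a difference per cell.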

How the data were processed

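ChIP-seq peak lists of 12 libraries, 6 antibodies under Veh and GSK treatment, were used, and the 4 input samples carried no list. The authors aligned reads to mm10 (Bowtie2, unique hits), discarded duplicates with Samtools and ran MACS2 with a p cutoff of 0.001. They also report equalising read numbers between libraries by random picking, and whether the lists were called on those reads is not clear. The authors deposited, for each peak, a fold enrichment (a ratio of ChIP signal to local background), −log10 p, −log10 q and a score derived from them. Narrow peaks with a summit make up the lists of LSD1 and Pol II, and histone lists are broad and were held to a −log10 q just above 3. Each list comes from 1 library, and the study states that the experiment was repeated and 1 repeat shown. Read numbers are not part of the lists, so depth and its precision were not computed, and the read numbers the study states were not used to scale them. A list grows with depth, so a peak listed under 1 treatment only can reflect a signal close to the threshold in the other. Broad calls can merge neighbouring sites, which moves peak counts.

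Peaks were assigned to genes with the curated RefSeq transcripts of GRCm38.p6 (31554 TSSs), as TSS (within 1 kb), intron, exon or intergenic by summit or midpoint, and counted as shared at an overlap of 1 bp. Coordinates count the first base as 1. Elements were merged overlapping peaks of all lists, with no enhancer criterion. Of the 34 elements, 18 overlapped a region that met the enhancer definition of the study as applied here. It gave 26676 regions, fewer than the study reports, so the sets differ. All peaks at member TSSs and the LSD1 peaks elsewhere were named, except 1 that is not reported here. Up to 8 sites were taken for sequences, and 1 in a Jph2 exon was not printed. Groups followed the sample labels. Python 3.11.15, pandas 2.3.3, numpy 2.4.6 and pysam 0.24.0 were used, and overlaps were tested on simulated data. The genes and lists were chosen with earlier results of these data known. With 1 library per group no test was possible, and alternatives were the promoter window, flank, overlap, −log10 p minimum, lists of equal length and predicted transcripts.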

Additional observations from a re-analysis of the deposited data

How the results depend on the processing

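No paired analysis was possible because each antibody and treatment had 1 library, and no replicate could be left out. The number of lists with a promoter peak stayed within 1.5 times for the 4 genes in all 20 comparisons with other promoter windows, a −log10 p minimum of 5, lists of equal length and predicted transcripts. With a window of 0.5 kb it fell from 9 to 6 for Tox4. With lists of equal length it was 5 for Tox, 4 for Tox2, 5 for Tox3 and 8 for Tox4. Lists of equal length left out the Veh H3K4me2 promoter peaks of Tox, Tox3 and Tox4. H3K4me2 at the Tox and Tox3 promoters was then in GSK only, and at Tox4 in neither list. The GSK H3K4me1 promoter peak of Tox was also left out. The number of Veh peaks shared with GSK stayed within 1.5 times in 28 of 30 comparisons. The exceptions came with a flank of 10 kb, where 3 of 5 Veh H3K4me2 peaks and 4 of 4 Veh H3K4me3 peaks were shared, in place of 7 of 11 and 7 of 7. The shorter flank leaves out the promoters that neighbour Tox4. These comparisons count shared peaks only, while the number of Veh peaks also changed. For LSD1, 9 of 14 Veh peaks were shared, but 9 of 10 at a −log10 p minimum of 5. With lists of equal length it was 9 of 12, and no whole-list share is given for these settings. Most Veh-only LSD1 peaks at the loci were thus weak calls. Counts of peaks per list moved by over 1.5 times in 11 of 48 comparisons. No scaling of the lists by depth was added here, and a GSK-only or Veh-only peak near the threshold, such as the Tox H3K4me1 promoter peak, can depend on depth.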
